A study of Arabidopsis thaliana x Arabidopsis arenosa with 4 samples.

Results

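In the silique RNA of the Col hybrid, 115 genes drew at least 50% of their allele-assigned expression from Arabidopsis arenosa, while in both the C24 and the Ler hybrid the same genes stayed below 50%. They were chosen from 14660 genes with allele values in all 3 hybrids, on the A. arenosa share, that is, the A. arenosa RPKM divided by the sum of the A. arenosa and A. thaliana RPKM. RPKM is reads scaled by transcript length and library size. The rule keeps 0.784% of the measured genes, and since it uses the shares themselves, the shares and allele levels below are a description and not a test. The C24 hybrid alone gave 12 such genes and the Ler hybrid alone gave 9, while 26 genes had an A. arenosa majority in all 3 hybrids.

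The study sequenced poly(A) RNA of siliques, the seed-bearing pods, collected 4 days after pollination. The 3 hybrids were F1 hybrids, made by emasculation and hand pollination, between tetraploid A. thaliana of the ecotypes C24, Ler or Col (named Col-0 in the growth protocol) and tetraploid A. arenosa (stock CS3901). The fourth group was Allo733 (stock CS3895, generation F8), an allotetraploid that carries the genomes of both species and has the ecotype label Ler. Each group had 1 library, so no difference between hybrids has a replicate check, and the Col ecotype, the individual A. arenosa parent and the library cannot be told apart. The labels used here do not state which species was the seed parent, nor how many siliques or plants stood behind a library. Where 3 values follow each other below, they are those of the C24, the Ler and the Col hybrid, in that order.

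In an interspecific hybrid each gene is present as a copy from each parent species, and sequence differences between the copies let reads be assigned to one or the other. A silique holds tissues of the plant that bears it (valves, septum, seed coats) together with the embryos and endosperm of the next generation. The labels do not say whether the siliques of the hybrids were borne by a parent of the cross, whose own tissues carry the genome of its species alone, or by a hybrid plant. In whole siliques, fewer cells of a type and less RNA per cell cannot be told apart.

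Genes of the silique wall and the ovule were detected in the libraries. Of the marker lists, 13 of 16 carpel and ovule genes, 20 of 26 seed coat genes and 7 of 7 photosynthesis genes were listed in at least 1 hybrid, where the lowest listed total is about 2 RPKM, against 4 of 17 embryo genes and 1 of 14 endosperm genes. Pollen genes were listed for 13 of 25, and the summed total of the 10 measured in all 3 hybrids was 158 RPKM in the C24, 172 in the Ler and 206 in the Col hybrid. Most of this sum came from the actin genes ACT11, with 69.1, 64.3 and 82.5 RPKM, and ACT3, with 47.4, 43.0 and 54.5 RPKM. Both had A. arenosa shares of at most 9.09%. None of the 10 was among the 115 genes. For VGD1, VGDH1, AGP11, AGP23, AGP40 and sks13 the rule fixed this, since their shares were above 50% in the C24 and Ler hybrids. The median A. arenosa shares of the 10 were 55.5%, 65.4% and 49.99%. The summed total of the 4 embryo genes was 83.7, 82.1 and 155 RPKM, highest in the Col hybrid, where PDF1, an epidermal gene, had 78.1 RPKM and ATML1, an epidermal homeobox gene, 52.7 RPKM. The part of these differences in the results below was not tested.

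The typical one of the 115 genes was an A. thaliana-dominated gene in 2 hybrids and an A. arenosa-dominated gene in the third. Its median A. arenosa share was 13.1% in the C24, 9.61% in the Ler and 65.9% in the Col hybrid, against medians of 5.41%, 3.77% and 4.79% over all measured genes. In the Col hybrid 32 of the 115 had a share of at least 80%, 40 lay from 60% to below 80%, and 43 lay below 60%. The gap between the Col share and the higher of the other shares had a median of 50.6 percentage points and ran from 4.1 points for AT3G09680, a ribosomal protein S12/S23 gene, to 95.6 points for AT2G33280, a major facilitator transporter. At one end, 42 genes had shares below 10% in both other hybrids, and at the other, 32 already had at least 25% in one of them.

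**Figure D1:**
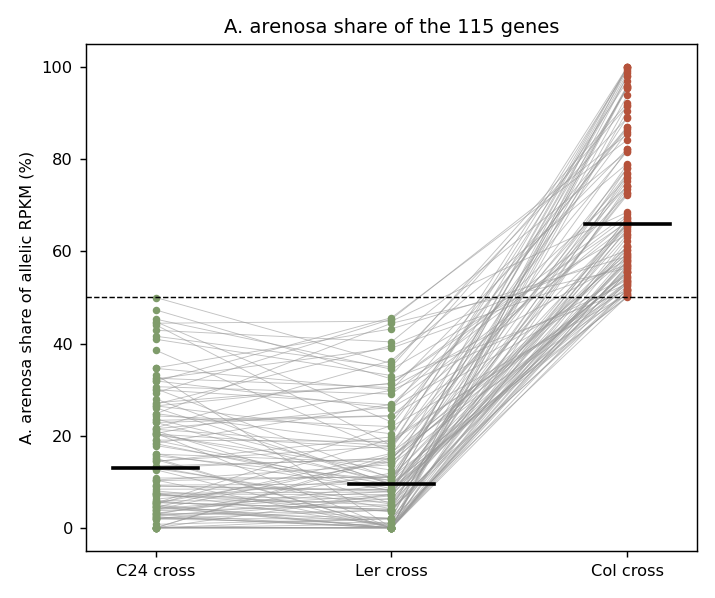
A. arenosa share of allele-assigned RPKM (%, y axis) of the 115 genes in the 3 hybrids (x axis), 1 point per gene and hybrid, lines joining a gene, black bars the medians and the dashed line the 50% threshold. The medians are 13.1% and 9.61% in the C24 and Ler hybrids and 65.9% in the Col hybrid, with 32 genes at 80% or more there.

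The threshold cuts a continuous range of shares. Just inside it lay AT1G15760, a SAM domain gene, at 50.01%, the endosomal sorting gene VPS28-2 at 50.2%, AT1G57660, a large-subunit ribosomal protein gene, at 50.2% and RPL16B at 50.6%. Just outside lay AT1G55545 at 49.97%, AT1G09880, a rhamnogalacturonate lyase gene, at 49.9%, FAF2 at 49.9% and AT4G37445 at 49.9%. With both other shares below 50%, 80 genes had a Col share from 40% to 50%, 194 from 30% to 40%, and 638 from 20% to 30%.

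The alleles differed in opposite directions, and their sum differed little on balance. On a log2(RPKM + 0.1) scale, which understates changes of low values, the median difference of the Col hybrid from the mean of the other hybrids was 2.60 for the A. arenosa allele, against 0.16 over all genes. For the A. thaliana allele it was -1.55, against 0.03 over all genes, and for the total it was -0.025, against 0.046. The A. arenosa RPKM summed over the 115 genes was 548 in the C24, 459 in the Ler and 2224 in the Col hybrid, while the A. thaliana RPKM was 3050, 3125 and 1428. The summed totals were 3599, 3583 and 3653 RPKM, so the group had nearly the same summed level in every hybrid. These sums rest largely on a few highly expressed genes. PIP2A alone had totals of 872, 569 and 555 RPKM, and emb2386 alone had an A. arenosa level of 377 RPKM in the Col hybrid. Totals of single genes differed more than the sums, as given below. The group supplied 1.46% and 1.54% of all A. arenosa RPKM in the C24 and Ler hybrids and 5.28% in the Col hybrid.

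In most of these genes the A. arenosa allele was higher in the Col hybrid, and in a smaller majority the A. thaliana allele was lower by the same size. The A. arenosa RPKM was at least 2-fold above both other hybrids in 92 of the 115, where 11.2% of all measured genes passed the same size. The A. thaliana RPKM was at least 2-fold below both others in 64, where 1.51% of all genes passed. Both held in 50, where 0.43% of all genes passed, and these 50 are most of the 63 such genes in the data. The A. arenosa allele alone was higher by this size in 42, the A. thaliana allele alone was lower in 14, and neither passed 2-fold in 9. Since the rule uses this contrast, nothing is read from these counts beyond their split.

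**Figure D2:**
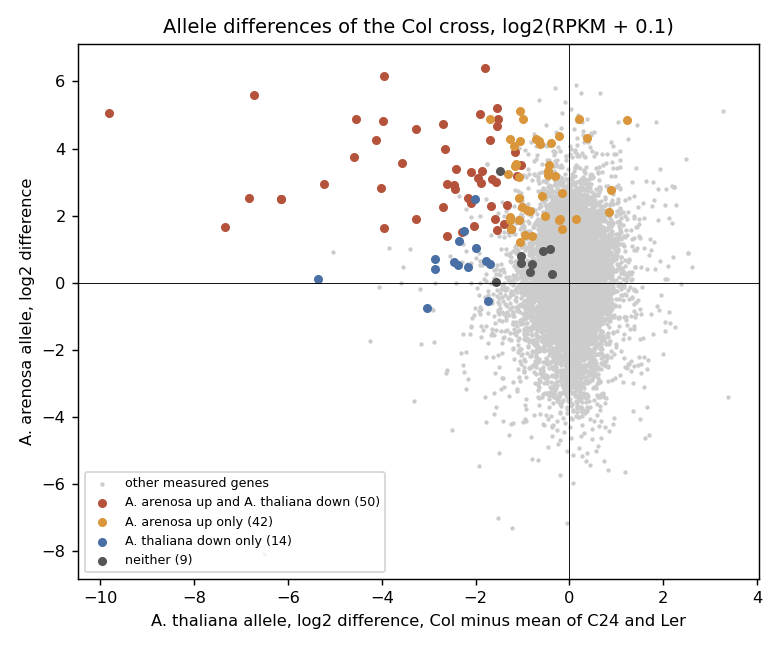
Difference of the Col hybrid from the mean of the C24 and Ler hybrids in log2(RPKM + 0.1), for the A. thaliana allele (x axis) and the A. arenosa allele (y axis). Grey points are the other measured genes and coloured points the 115 genes by which allele passed 2-fold against both other hybrids: both in 50, A. arenosa alone in 42, A. thaliana alone in 14 and neither in 9.

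The 50 genes in which both alleles passed 2-fold had median differences of 3.04 for the A. arenosa and -2.36 for the A. thaliana allele and of -0.040 for the total, and in 25 of them the total lay within 1.5-fold of both other hybrids. Across the 115 genes this closeness of totals held for 43, or 37.4%, against 65.5% of all measured genes. After centring on the median of all genes, the total was at least 2-fold above both other hybrids in 6 of the 115 (0.539% of all genes) and at least 2-fold below in 5 (0.975% of all genes). The 6 higher genes included FLS2, flavonol synthase 2, with totals of 11.01 RPKM in the C24, 3.05 in the Ler and 31.6 in the Col hybrid, and TYRDC, L-tyrosine decarboxylase, with 4.19, 3.80 and 12.4 RPKM. The 5 lower genes included INT2, an inositol transporter, with 22.1, 4.87 and 2.22 RPKM. These 3 were picked after their values were seen.

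The 115 genes comprised 24 of lipid and other metabolism, 20 transcription regulators, 18 cell wall and secreted proteins and 12 transporters and channels. The rest were 9 kinases and signalling proteins, 8 ribosomal proteins, 6 cytoskeleton and membrane traffic proteins, and 3 proteins of RNA silencing and RNA binding. A further 15 were other or unknown genes. This grouping by function was made by hand from the annotated products. The regulators include genes of flower, ovule and cell fate. Some, such as AT1G70270 and AT3G56220, are annotated only as a transcription factor or regulator. By patterns applied alike to all product names, transcription factors and DNA-binding proteins made up 13 of the 115, or 11.3%, against 6.30% of all measured genes. Transporters made up 6.09% against 3.27%, and cytochrome P450 enzymes 2.61% against 0.559%, which is 3 genes. Kinases and receptors, at 6.96% against 7.18%, and nucleic acid and ribosome genes, at 8.70% against 8.58%, had nearly the same share in both. Ubiquitin, F-box and RING genes were 1 of the 115, or 0.870%, against 3.26%. These are counts of few genes, given without a test.

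The regulators had low A. arenosa shares outside the Col hybrid. Their medians were 7.97%, 8.26% and 65.9%, and 18 of the 20 had an A. arenosa RPKM at least 2-fold above both others. So did 92 of all 115 genes and 11.2% of all measured genes. The rule uses this contrast, so the count is a description. Among the regulators were 3 MADS-box genes of floral organ identity.

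AP3, which specifies petals and stamens, had A. thaliana levels of 32.5, 32.7 and 11.2 RPKM and A. arenosa levels of 0.634, 0.334 and 20.6 RPKM. Its totals were 33.1, 33.0 and 31.8 RPKM, so nearly the same amount of AP3 transcript came to 64.9% from A. arenosa in the Col hybrid, against 1.92% and 1.01% in the others. SEP2, a SEPALLATA partner of the organ identity proteins, had totals of 156, 155 and 153 RPKM. Its A. arenosa level was 25.04, 12.6 and 85.4 RPKM and its A. thaliana level 131, 142 and 67.1 RPKM, a share of 56.0% in the Col hybrid. SEP1, its close paralogue, had totals of 44.5, 47.1 and 45.9 RPKM and shares of 29.99%, 26.7% and 65.5%. All 3 genes thus kept their totals within a narrow range while the allele that supplied most of it differed. SEP1 and SEP2 are paralogues, and whether reads were divided between them was not tested.

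The rest of the MADS-box family was mixed. Of the other 17 of 20 genes measured, by product name, the Col share was the highest of the 3 in 8, or 47.1%, where 39.4% of all genes had their highest share in the Col hybrid, and their median shares were 4.26%, 5.51% and 10.3%. STK, which sets ovule identity, had shares of 7.25%, 4.56% and 36.5%. SHP1, a valve margin and ovule gene, had 4.26%, 3.86% and 34.3%, and AGL8 (FRUITFULL, of the valves) had 3.42%, 5.51% and 29.7%. These 3 genes had raised Col shares below the threshold. So did AGL6, at 0.514%, 3.47% and 22.8%, and, less so, SHP2, at 2.63%, 0.0005% and 10.8%. SEP3, at 35.0%, 21.8% and 28.7%, SEP4, at 3.91%, 4.67% and 6.07%, and AG, the carpel and stamen identity gene, at 1.27%, 12.1% and 10.3%, had Col shares below or close to the higher of their other shares, and AGL87 had its lowest share there, at 37.8%, 14.8% and 8.47%.

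**Figure D3:**
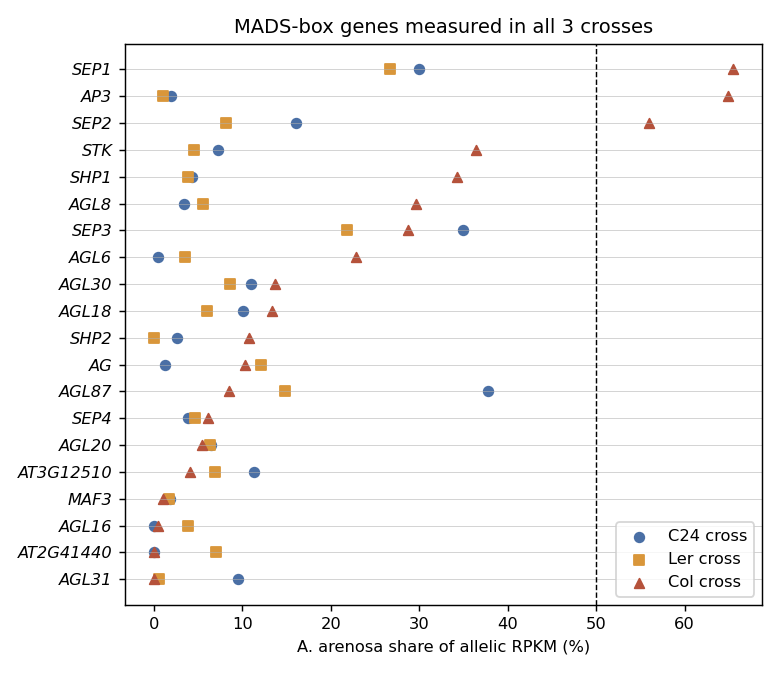
A. arenosa share of allele-assigned RPKM (%, x axis) of the 20 MADS-box genes measured in all 3 hybrids (y axis, ordered by Col share), 1 symbol per hybrid, dashed line at 50%. SEP1, AP3 and SEP2 pass 50% in the Col hybrid alone, and STK, SHP1 and AGL8 lie between 29.7% and 36.5% there against at most 7.25% in the others.

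A meristem regulator and ovule regulators were among the 115. STM, the KNOX homeobox gene that maintains the shoot meristem, had A. thaliana levels of 11.2 and 11.7 RPKM in the C24 and Ler hybrids and 0.0621 RPKM in the Col hybrid. Its A. arenosa level was 1.90, 2.52 and 12.9 RPKM, which left the totals at 13.1, 14.2 and 13.0 RPKM and the Col share at 99.5%, 81.8 points above the higher of the other shares. The other 5 KNOX genes measured had Col shares of at most 17.8%, the value of KNAT7. INO, the YABBY gene needed for the outer integument of the ovule, had A. thaliana levels of 5.30, 4.89 and 1.33 RPKM and A. arenosa levels of 0.160, 0.660 and 4.42 RPKM. Its totals of 5.46, 5.55 and 5.75 RPKM were again close, and the other 3 measured YABBY genes had Col shares of at most 6.80%. VDD, a B3-domain gene of the female gametophyte, had totals of 3.58, 6.32 and 5.89 RPKM and shares of 20.3%, 17.2% and 85.9%.

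Seed coat and wall-thickening regulators were also present. TT8, a bHLH regulator of proanthocyanidin pigment in the seed coat, had shares of 26.5%, 31.4% and 68.1%, with A. arenosa levels of 4.24, 4.73 and 12.1 RPKM and A. thaliana levels of 11.8, 10.4 and 5.68 RPKM. MYB61, a regulator of seed coat mucilage among other traits, had shares of 5.49%, 4.04% and 51.6%, with A. arenosa levels of 1.09, 0.461 and 7.14 RPKM. The 20 measured seed coat genes had median shares of 5.75%, 2.92% and 9.10%, so most did not follow TT8 and MYB61. NST1, a NAC factor that switches on secondary wall thickening, had A. thaliana levels of 33.4, 12.3 and 0.745 RPKM and A. arenosa levels of 1.66, 0.123 and 8.38 RPKM. Its total was 35.1, 12.5 and 9.13 RPKM, highest in the C24 hybrid, and the summed total of the 10 secondary wall genes measured was likewise 1109, 211 and 235 RPKM. The median share of those 10 genes was 4.36% in the Col hybrid.

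SPL8, a squamosa-promoter-binding gene of anther and gynoecium development, had A. thaliana levels of 19.0, 18.6 and 5.01 RPKM and A. arenosa levels of 1.46, 0.957 and 9.89 RPKM, a Col share of 66.4%. The B3-domain genes AT2G35310, AT5G60140 and AT3G06160 had Col shares of 74.2%, 55.6% and 50.7%. The other 19 measured genes of the family by product name, which leaves out VDD, had a median Col share of 7.01%. Other regulators were MYB10 (93.8% in the Col hybrid), the trichome and root hair gene CPL3 (59.3%), the growth-regulating factor GRF8 (56.8%) and DOF2.4 (54.7%). Totals were near the lowest listed values for CPL3, at 2.26, 2.25 and 2.35 RPKM, and for MYB10, at 4.15, 3.03 and 3.07 RPKM. AGO5, an Argonaute protein that loads small RNAs in reproductive cells, had A. thaliana levels of 23.7, 23.6 and 11.4 RPKM and A. arenosa levels of 1.78, 1.56 and 19.95 RPKM. Its Col share of 63.6% compares with Col shares of at most 17.1% in the other 5 Argonaute genes measured, of which AGO9, also of ovules, had 13.9%.

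**Figure D4:**
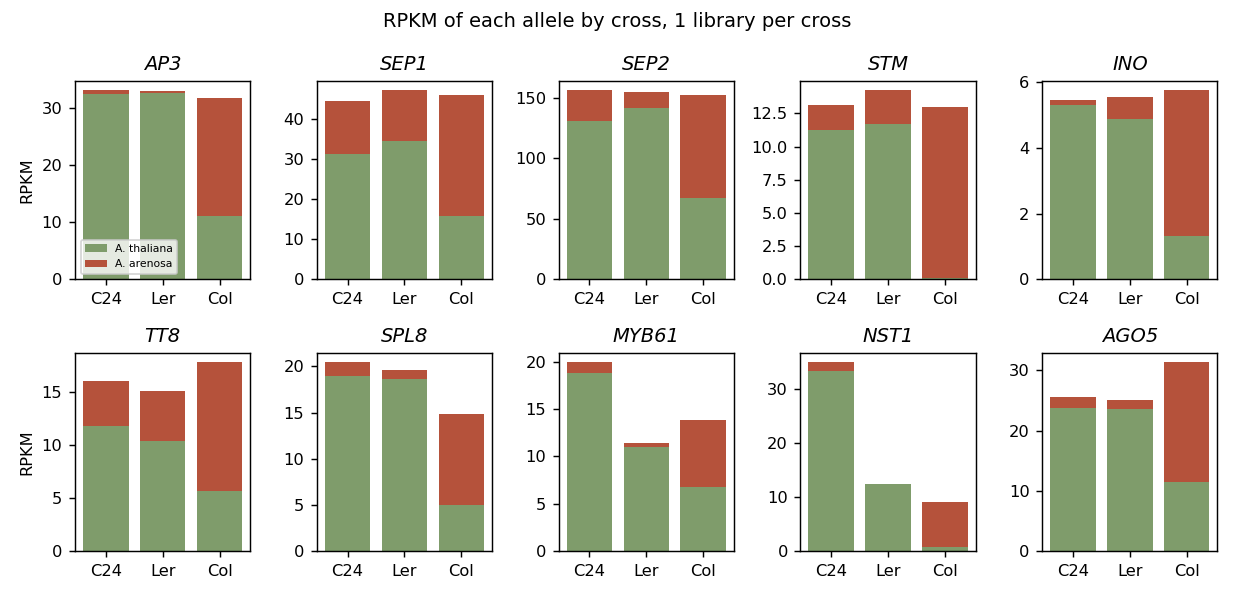
RPKM (y axis, from 0, a scale for each gene) of the A. thaliana and A. arenosa alleles, stacked, in the C24, Ler and Col hybrids (x axis), for 10 of the genes, 1 library per hybrid. In AP3, SEP1, SEP2, STM and INO the stacks are of nearly equal height and the A. arenosa part is the larger only in the Col hybrid.

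Transporters of the group had median shares of 7.24%, 9.35% and 79.9%. UMAMIT15, of the UMAMIT family of amino acid exporters, had A. thaliana levels of 38.0, 27.9 and 1.29 RPKM and A. arenosa levels of 1.27, 0.611 and 28.8 RPKM. Its totals were 39.2, 28.5 and 30.05 RPKM, a near exchange of one allele for the other. UMAMIT14, which unloads amino acids in siliques, had A. thaliana levels of 13.4, 40.1 and 18.6 RPKM, not lower than both others in the Col hybrid, and A. arenosa levels of 1.34, 3.47 and 20.5 RPKM. With UMAMIT8, whose Col share was 53.6%, these were 3 of 21 UMAMIT genes measured, and the other 18 had a median Col share of 3.94%. Of the 8 seed nutrient transport genes measured, UMAMIT14 was the 1 member, and the median Col share of the list was 8.48%.

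PIP2A, a plasma membrane aquaporin, was the most highly expressed of the group, with totals of 872, 569 and 555 RPKM, A. thaliana levels of 840, 542 and 272 RPKM and A. arenosa levels of 32.6, 27.3 and 283 RPKM. Its membership depends on the transcript: the transcript kept, AT3G53420.2, had a Col share of 50.9%, while AT3G53420.1 had 23.7%. PIP2;4, another aquaporin in the group, had shares of 34.7%, 43.2% and 58.9%. PIP genes form a family of close paralogues, and whether reads were divided among them was not tested. The other 10 measured PIP genes had Col shares of at most 17.4%, the value of PIP1B. VPS28-2 also depended on the transcript, with 50.2% and 0.0122%, while SPL8, PAP20, TYRDC, SEP1 and SWEET8, the other 5 members with several transcripts in the Col table, passed 50% with each.

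ABCG17 and ABCG13, half-size ABC transporters, of which ABCG13 exports cuticle components in petals, had Col shares of 78.1% and 58.9%. The genes on either side of ABCG17, its relatives ABCG16 and ABCG18, had Col shares of 13.3% and 13.9%. SWEET8, a sugar exporter of the anther, and OPT8, annotated to sperm cell and pollen tube, already had shares near 40% or more in one of the other hybrids: 42.9%, 40.4% and 81.6% for SWEET8 and 49.99%, 35.6% and 88.9% for OPT8. Their totals were between 2.01 and 4.43 RPKM, near the lowest listed values.

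Cell wall and secreted proteins had median shares of 17.3%, 13.7% and 74.4%. RCI3, a cold-induced peroxidase, had A. thaliana levels of 113, 25 and 0.367 RPKM and A. arenosa levels of 9.20, 2.11 and 25.9 RPKM. AT5G01870, a lipid transfer protein, had A. thaliana levels of 42.8 and 189 RPKM in the C24 and Ler hybrids and 7.62e-05 RPKM in the Col hybrid, where the A. arenosa level was 183 RPKM. In both genes the A. thaliana allele was at or below 0.367 RPKM in the Col hybrid. The Col total was near that of the Ler hybrid but not that of the C24 hybrid. The totals were 122, 27.1 and 26.3 RPKM for RCI3 and 44.2, 208 and 183 RPKM for AT5G01870.

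BGAL7, a beta-galactosidase, MEE26, a hydroxyproline-rich protein, and RXF26, a GDSL lipase, had Col shares of 100%, 100% and 95.99%. Their totals were 9.08, 7.93 and 8.62 RPKM for BGAL7, 23.9, 15.5 and 9.96 RPKM for MEE26 and 13.5, 8.64 and 23.2 RPKM for RXF26. AT4G21640, a subtilase annotated to the synergid cell of the ovule, had shares of 2.87%, 3.83% and 58.1%. The subtilase genes on either side of it, AT4G21630 and AT4G21650, had raised Col shares too, of 34.4% and 28.2%, against at most 6.72% in the other hybrids. Whether reads were divided among these related neighbours was not tested. ARPN, plantacyanin, a secreted copper protein of the pistil, had shares of 33.3%, 0% and 53.6%, its A. arenosa allele being listed at 0 in the Ler hybrid.

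Among kinases, AT2G40980 had A. thaliana levels of 9.44 and 11.6 RPKM and was listed at 0 for that allele in the Col hybrid. Its A. arenosa level was 0.456 RPKM in the C24 hybrid, listed at 0 in the Ler hybrid and 11.4 RPKM in the Col hybrid, with totals of 9.90, 11.6 and 11.4 RPKM. SNRK2.7, a kinase of the osmotic stress family, had A. thaliana levels of 8.67, 9.26 and 2.51 RPKM. Its A. arenosa level was 8.31 RPKM in the Col hybrid and below 0.01 RPKM in the others. GSO2, a receptor kinase needed for the embryo's cuticle, had shares of 5.35%, 22.2% and 87.0%.

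Some alleles were near 0. The A. arenosa RPKM was below 0.01 in 9 of the 115 genes in the C24 hybrid, in 17 in the Ler hybrid and in 4 in both, and the A. thaliana RPKM was below 0.01 in 4 in the Col hybrid. Depth is unknown for these files, so whether such alleles were silent or below detection was not tested. The matching counts over all measured genes were not made, so near-0 alleles are not read as a feature of the group. They also occurred outside it. The A. arenosa allele of XCP2, a secondary wall gene, was listed at 0 in every hybrid, and that of UMAMIT10 was below 0.01 RPKM in each.

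In the cytoskeleton group, SP1L4 and SP1L5, SPIRAL1-like microtubule proteins, had Col shares of 62.2% and 66.3% and shares of at most 10.4% in the other hybrids, while SP1L3 had 1.96% in the Col hybrid. TRM24, of a family that binds microtubules, had A. thaliana levels of 4.32, 7.83 and 0.810 RPKM and A. arenosa levels of 0.769 RPKM, below 0.01 RPKM and 7.71 RPKM.

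Metabolic genes had median shares of 16.4%, 9.87% and 62.8%. CYP86C1 and CYP96A2, cytochrome P450 enzymes annotated to petal, sepal, pedicel and embryo, had Col shares of 54.5% and 56.4%. TPS14, a terpene synthase of flowers, had 98.0%, with totals of 2.16, 4.16 and 3.23 RPKM, near the lowest listed values. STS, stachyose synthase, which makes a raffinose-family sugar, had shares of 3.97%, 14.7% and 78.0%, with totals of 6.95, 9.26 and 8.20 RPKM. The A. thaliana allele was also higher in the Col hybrid than in both others in 5 of the 115 genes, of which AT5G03285 has no annotated product and 4 are metabolic. Beside AT2G28680, a cupin gene, these were FLS2, with A. thaliana levels of 9.99, 2.76 and 12.6 RPKM and A. arenosa levels of 1.02, 0.291 and 19.1 RPKM, AT1G72110, a wax ester synthase-like gene, with 15.3, 8.14 and 20.8 RPKM and 4.65, 2.62 and 24.2 RPKM, and TYRDC, with 4.08, 3.54 and 4.42 RPKM and 0.107, 0.264 and 8.02 RPKM. In the opposite case, AT1G12010, an ACC oxidase-like dioxygenase gene, the A. arenosa allele was at 14.5, 23.9 and 10.96 RPKM and the A. thaliana allele at 32.8, 58.3 and 5.28 RPKM, so its A. arenosa majority of 67.5% came with a lower level of both.

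The 8 ribosomal protein genes had the lowest median Col share of the functional groups. Their median shares were 32.3%, 19.2% and 53.7%, the smallest contrast of the functional groups. Of the 8, 5 had an A. arenosa RPKM at least 2-fold above both others, as did 92 of all 115 genes and 11.2% of all measured genes. The rule uses this contrast, so the count is a description. The gene emb2386, of ribosomal protein L19, had A. thaliana levels of 246, 515 and 317 RPKM and A. arenosa levels of 154, 101 and 377 RPKM. AT1G57660 and AT1G57860, near-identical genes for the same large-subunit protein, had Col shares of 50.2% and 53.1%, and RPL16B had A. arenosa levels of 30.4, 41.8 and 134 RPKM at a Col share of 50.6%. The group also held 3 genes with high Col shares, in each of which the A. thaliana allele was at least 2-fold lower than in both others. This size was passed by 64 of all 115 genes and by 1.51% of all measured genes. AT3G10950, a zinc-binding ribosomal protein gene, had A. thaliana levels of 7.74, 6.25 and 0.0885 RPKM and a Col share of 99.2%. AT5G09500, a ribosomal protein S19 gene, and AT5G40040, a 60S acidic ribosomal protein gene, had Col shares of 91.5% and 86.6%. Ribosomal proteins come from families of close gene copies, so the split of reads among copies is uncertain for all 8. The other 294 ribosomal protein genes measured, leaving out those named as organellar, had a median Col share of 5.05%.

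The annotation gives these genes a narrower range of expression than other genes. It records the number of plant structures in which a gene's transcript was found for 62 of the 115, with a median of 12 structures and quartiles of 6 and 17, against a median of 22 and quartiles of 21 and 24 for 9354 other genes. At least 20 structures were recorded for 17.7% of the 62 and for 80.3% of the others. Individual structures, for at most 5 of them, were listed for 15 of the 62, or 24.2%, against 6.30% of the others, and these structures included petal for ABCG17, CYP86C1, CYP96A2 and AT2G28680, male gametophyte for OPT8 and AT2G28680, synergid for AT4G21640 and micropylar endosperm for TT8. The ribosomal genes AT1G57660, AT1G57860 and RPL16B had leaf, guard cell or root entries, and AT3G14510, a polyprenyl synthetase gene, had root alone.

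**Figure D5:**
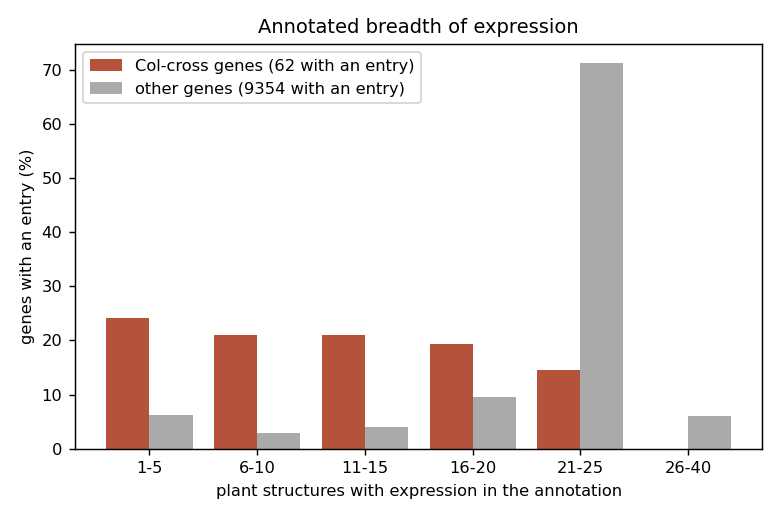
Percent of genes (y axis, from 0) by the number of plant structures in which the annotation records expression (x axis), for the 62 of the 115 genes and the 9354 other genes with an entry. The 115 genes spread evenly over 1 to 20 structures, while 71.2% of the other genes have 21 to 25.

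Expression was also lower. The mean total was below 10 RPKM in 66 of the 115 genes, or 57.4%, against 38.7% of all measured genes, and at least 50 RPKM in 11. Among other genes below 10 RPKM the median was still 22 structures, with quartiles of 17 and 23, against 10 structures for members below 10 RPKM. Genes with an A. arenosa majority in all 3 hybrids were narrower yet, with a median of 10 structures over 18 genes with an entry. The 21 genes of the C24 or Ler hybrid alone had a median of 18, over 10 genes with an entry. Products annotated to the endomembrane system, the secretory route, made up 24 of the 65 of the 115 with a location, or 36.9%. The figure was 12.3% for other genes and 14.8% for other genes below 10 RPKM. For the genes of the C24 or Ler hybrid alone it was 35.7%, or 5 of 14, so this trait was not particular to the Col hybrid. In the 26 genes with an A. arenosa majority in all hybrids it was 73.9%, or 17 of the 23 with a location. The median coding length was 920 bases, against 1179 for other genes and 966 for the genes of the C24 or Ler hybrid alone.

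The 115 genes were scattered over the genome. Chromosomes 1 to 5 held 30, 20, 19, 17 and 29 of them, between 0.646% and 0.905% of the measured genes of each chromosome. The 230 nearest measured neighbours had median shares of 5.84%, 4.61% and 5.94%, close to the medians of all genes. Of these neighbours 6 had a Col share of at least 50%, against 148 of all 14660 measured genes, and 4 of the 6 were themselves among the 115. They comprise the adjacent pairs AT3G14510 with AT3G14530, related prenyl synthase genes, and PGSIP8 with UMAMIT8, together with the pectin gene PGA4 next to emb2386 and the pollen pectin methylesterase VGD1 next to AT2G47050, annotated as an invertase or pectin methylesterase inhibitor. PGA4 had shares of 83.2%, 88.7% and 79.2% and VGD1 had shares of 79.0%, 75.4% and 81.9%.

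For 20 of the 115 genes the deposited tables that set a hybrid beside Allo733 give a total level, and 9 genes are in all 3 tables. These tables hold selected transcripts, chosen by a rule that the labels do not state. In the table of the Col hybrid, 12 of the genes were listed, of which 6 were at least 2-fold higher in the hybrid (32.2% of all listed genes) and 5 at least 2-fold higher in Allo733 (28.8% of all listed genes). In the table of the C24 hybrid, 16 were listed, of which 6 were higher in the hybrid (31.8% of all listed genes) and 7 in Allo733 (31.1%). In the table of the Ler hybrid, 13 were listed, of which 4 were higher in the hybrid (29.8%) and 8 in Allo733 (27.8%). The genes thus stood on both sides in each table, and whether their split differs from that of the listed genes was not tested.

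AT5G01870 had totals of 44.2, 208 and 183 RPKM against 12.8 RPKM in Allo733, and UMAMIT15 had 39.2, 28.5 and 30.05 RPKM against 8.28 RPKM. AT1G35290, a thioesterase gene, had 76.4, 14.2 and 14.4 RPKM against 1.77 RPKM, and FLS2, listed beside Allo733 for the Col hybrid, had 31.6 RPKM against 1.43 RPKM, a ratio of 20.8 on the scale with the pseudocount. These 4 genes were higher in every hybrid listed. Higher in Allo733 were AT1G12010, with 47.3, 82.2 and 16.2 RPKM against 242 RPKM, ARPN, with 14.9, 29.1 and 13.1 RPKM against 85.5 RPKM, and RCI3, with 122, 27.1 and 26.3 RPKM against 190 RPKM. AT4G19430, an uncharacterized gene, had 14.6, 9.82 and 5.92 RPKM against 63.1 RPKM, and AT2G19970, a CAP-family secreted protein, had 6.22, 7.82 and 7.70 RPKM against 31.9 RPKM. MLP328, a major latex protein-like gene, changed side, with 196 RPKM in the C24 and 20.23 RPKM in the Ler hybrid against 41.0 RPKM. Allele values of Allo733 were not analysed here, so these comparisons hold for totals alone.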

How the data were processed

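Poly(A) RNA of siliques was sequenced with an Illumina RNA-Seq kit, 1 library for each of 3 F1 hybrids and Allo733, per the labels. The authors deposited RPKM values of each transcript as a total and split by parental allele (1 table per hybrid), and of selected transcripts of a hybrid beside Allo733, as the file headers show. The build was TAIR 9, which is of the Col-0 ecotype, per the submitters' processing notes. How reads were mapped and assigned to alleles is not given in the sources used here, nor was any effect of the reference ecotype on the shares tested. Depth is unknown, so no counting interval is given. Repeated header lines of the Col table (4) and transcripts there with both alleles at 0 (41) were left out.

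One transcript per locus was kept, that listed in most hybrids and then that with the highest mean total. The rule's members are genes with a share of at least 50% in the Col hybrid and below 50% in both others. Of 208 genes with such a Col share, 60 lacked a value in at least 1 of the other hybrids. Differences are log2(RPKM + 0.1), between the Col hybrid and the mean of the others, and with 1 library per group no test was run. Names, products, gene order and coding lengths come from the TAIR 10.1 annotation, which matched 16522 of 16610 loci; no coordinates are used. Breadth and location come from its notes. Python 3.11.15, pandas 2.3.3, numpy 2.4.6 and matplotlib 3.10.9 were used. The rule was tested on simulated data.

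The members, gene lists and tests were chosen with earlier results of these data known, and the functional groups and the families compared after the members' values were seen. The genes named by rule were the 12 with the widest gap among those of at least 5 RPKM in every hybrid, the 10 with the highest mean total, every member on a list, up to 10 listed beside Allo733, and 4 on each side of the threshold; others were picked for their role after their values were seen. Of 12 marker lists, those for embryo (STM), carpel and ovule (INO), secondary wall (NST1) and seed nutrient transport (UMAMIT14) held 1 member each and seed coat held 2 (TT8, MYB61). The pollen, endosperm, photosynthesis, cuticle, imprinted, cell cycle and defence lists held 0. Their median Col shares were 49.99%, 19.8%, 1.62%, 1.47%, 12.5%, 12.7% and 5.18%, over 10, 1, 7, 11, 3, 7 and 1 measured genes. For the pollen and imprinted lists the 0 was set in part by the rule, which leaves out genes with at least 50% in the C24 or Ler hybrid. Alternatives were other share thresholds, a minimum total, every transcript, rescaled shares, another pseudocount, centring and other fold sizes.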

Additional observations from a re-analysis of the deposited data

How the results depend on the processing

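The number of genes depends on the share threshold. A threshold of 60% gave 76 genes (72 shared with the 115), one of 40% gave 178 (102 shared), and a total of at least 5 RPKM in every hybrid left 65. It was 83 with both other shares below 25%, 124 over all transcripts, 107 with rescaled shares and, as alternatives chosen after seeing the data, 129 without the C24 and 135 without the Ler hybrid in the rule. The median log2 difference of the A. arenosa allele was 1.75 with a pseudocount of 1 RPKM, 2.94 for genes of at least 5 RPKM, 2.45 against the C24 hybrid alone and 2.57 against the Ler hybrid alone. That of the A. thaliana allele was -1.26, -1.52, -1.57 and -1.48 in the same order. That of the total was -0.021, 0.027, -0.0033 and 0.015, and -0.071 after centring, so its sign is not fixed. Totals at least 1.5-fold from both other hybrids numbered 21, against 11 at 2-fold, 9 without centring and 0 at 4-fold. In the Col table with Allo733, 8 of the 11 passed 4-fold. No paired analysis was possible because each group has 1 library and no result comes from a test. With unknown depth, the lowest alleles and the 23 genes with a total below 3 RPKM in some hybrid are the least certain.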
